A study of Mus musculus with 4 samples.

Results

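Circular RNAs (circRNAs) whose host genes are annotated as long noncoding RNAs were described here in the brain of mice 3 h into a permanent occlusion of the middle cerebral artery (MCAO), a stroke model in which a filament blocks the main artery of the lateral cortex. A circle was included if 1 or both of its ends lay on an exon boundary of an autosomal GENCODE M21 gene of type lincRNA, antisense, processed_transcript, sense_intronic or bidirectional_promoter_lncRNA, and neither end lay on a boundary of a protein-coding gene. Of the 23980 circRNAs listed, 334 met this rule. All coordinates are on GRCm38.

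There were 4 libraries, 1 for each group: penumbra tissue, infarct core near the frontal lobe, infarct core near the occipital lobe, and cortex of sham-operated mice that matched the core and penumbra positions. RNA of 6 MCAO mice was mixed for each of the 3 MCAO libraries, so the spread between animals was not measured. The sources used here do not say whether sham tissue was pooled, nor give the strain, age or sex of the mice. The count of all circRNAs was 96349 in penumbra, 121393 in frontal core, 83090 in occipital core and 106558 in sham. A test between 2 of them compares those libraries, not the conditions. With 1 library a group there is no replicate check, and all intervals cover counting error only (95%; exact Poisson for a level, Clopper-Pearson for a share or a ratio).

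A circRNA forms when the end of a downstream exon is joined back to the start of an upstream exon, which leaves a closed RNA without cap or poly(A) tail. Long noncoding RNA genes are spliced like messenger RNA genes, so they can form such circles too. In brain, several long noncoding RNA loci are known for imprinting (expression from 1 parental allele), for hosting small nucleolar RNAs (snoRNAs) or microRNAs, or for roles in neural differentiation.

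The back-splice junctions of the most counted circles are printed because a junction is what identifies a circle. Each line holds the last 25 bases before the junction and the first 25 bases after it, on the strand of the host, with the 8 bases on each side of the junction in capitals. They were read from GENCODE M21 transcripts at the 2 ends given in the table, so they are the bases that annotation places there. Of the 12 most counted circles, that of Gm32786 is not printed, since 1 of its ends lies outside the transcripts.

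4933406I18Rik chr7:114319453-114321251, minus strand: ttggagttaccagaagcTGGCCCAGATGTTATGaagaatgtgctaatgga
Lncpint chr6:31166476-31181149, minus strand: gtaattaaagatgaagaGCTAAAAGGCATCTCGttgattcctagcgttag
A230057D06Rik chr7:61813262-61814190, minus strand: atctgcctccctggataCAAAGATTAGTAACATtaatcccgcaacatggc
Pvt1 chr15:62107148-62107465, plus strand: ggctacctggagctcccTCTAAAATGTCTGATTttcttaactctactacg
Snhg14 chr7:59955645-59956800, minus strand: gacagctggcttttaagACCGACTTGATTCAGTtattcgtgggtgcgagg
Rmst chr10:92075170-92136690, minus strand: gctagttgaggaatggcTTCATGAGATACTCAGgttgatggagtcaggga
A230057D06Rik chr7:61813262-61925420, minus strand: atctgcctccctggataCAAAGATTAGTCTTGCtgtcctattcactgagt
Lncpint chr6:31139729-31197851, minus strand: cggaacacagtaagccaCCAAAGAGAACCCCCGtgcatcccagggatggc
Lncpint chr6:31166476-31197851, minus strand: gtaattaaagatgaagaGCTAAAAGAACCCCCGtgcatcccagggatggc
Gm34237 chr12:11871835-11884915, plus strand: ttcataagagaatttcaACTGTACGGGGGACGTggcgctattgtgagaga
Rab10os chr12:3237285-3238112, plus strand: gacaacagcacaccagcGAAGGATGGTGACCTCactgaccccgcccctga

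Read side by side, these lines show how circles of 1 host share ends. The Lncpint circles chr6:31166476-31181149 and chr6:31166476-31197851 have the same bases before the junction and different bases after it, while chr6:31139729-31197851 has the same bases after the junction as chr6:31166476-31197851. The A230057D06Rik pair likewise have the same bases before the junction.

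The circles fell on few genes. Of the 334, 174 had a lincRNA host, 117 a processed_transcript, 29 an antisense gene, 4 a bidirectional_promoter_lncRNA and none a sense_intronic gene. A further 2 had ends shared by genes of 2 types, and 8 joined 2 different long noncoding RNA genes. The hosts numbered 121 (118 single genes and 3 pairs of genes that share a boundary), of which 74 had 1 circle and 11 had 5 or more. The 5 hosts with the largest sums (Lncpint, A230057D06Rik, Snhg14, 4933406I18Rik and Pvt1) held 51.1% of the 3904 counts.

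The GENCODE type was set beside RefSeq as a check of the label. Of the 121 hosts, 97 matched a RefSeq symbol, and 91 of these were lncRNA there as well. RefSeq typed 5 hosts as protein coding: Zswim6 (72 counts), Trerf1 (52), Tctn2 (11), Gm39469 (7) and 1810020O05Rik (3). These 5 held 10 circles and 145 counts in all. For these 5 the label long noncoding RNA host thus rests on GENCODE M21 alone, and hosts without a RefSeq match could not be checked. By position the circles lay mostly apart from genes that GENCODE types as protein coding, with 5 inside the bounds of one and 13 overlapping one. Zswim6, Trerf1 and Tctn2 do not count as such genes here.

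As a share of all circRNA counts in a library, these circles held 0.965% in penumbra (0.904 to 1.03), 0.903% in frontal core (0.85 to 0.958), 0.951% in occipital core (0.886 to 1.02) and 1.02% in sham (0.962 to 1.08). The sham share was the highest and the frontal core share the lowest, and their intervals did not overlap. The intervals did overlap with sex chromosomes included (1.02 to 1.14 in frontal core, 1.1 to 1.23 in sham) and without Lncpint (0.726 to 0.825 in frontal core, 0.804 to 0.916 in sham). In bulk tissue, fewer cells of a type and less RNA per cell cannot be told apart. At least 1 count was found for 221 circles in penumbra, 223 in frontal core, 211 in occipital core and 217 in sham.

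Their structure differed from that of the other 23646 circRNAs in several descriptive measures, of which the type of end is tied to the rule. Both ends lay on boundaries of the same gene for 112 circles (33.5%), and 1 end only for 214 (64.1%); among the others these shares were 83.7% and 11.3%. The median genomic span was 27059 bases, against 12456 bases for the others, and 17.4% against 5.41% spanned over 100000 bases. Span varied with the type of end. The median was 12653 bases for the 112 circles with both ends on boundaries of the same gene (10.7% over 100000 bases). It was 34945 bases for the 214 with 1 end (20.6%). Where 1 transcript had both ends on its exon boundaries (81 circles, and 19507 of the others), the median spliced length was 357 against 542 bases, with a median of 3 against 4 exons. Such a circle began at exon 2 in 37% (30 of 81) of cases, against 23.8% of the others. The count summed over the 4 libraries was 10 or more for 71 circles (21.3%), against 28.2% of the others, and its median was 4 against 5. Counts were found in all 4 libraries for 85 circles (25.4%, against 30.4%). These measures also varied with the type of end. With both ends on the same gene, 33.9% had 10 or more counts (median 5) and 37.5% were in all 4 libraries. With 1 end these values were 15.0% (median 4) and 19.2%. For span and counts the others were not split by type of end. The exons between the ends come from annotation and were not measured.

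The bases just outside the ends could be read only where another annotated transcript covered them. All 17 circles with both flanks covered had AG before the upstream end and GT after the downstream end on the strand of the host, against 600 of 616 of the others (97.4%). For annotated ends this motif is largely given by the annotation. Among ends that no annotation marks, all 37 that could be read had the splice motif on the host's strand, as did all 1066 of the others. Whether the authors' circRNA caller required this motif is not given in the sources used here.

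Chromosome 7 held 117 of the 334 circles (35%), against 6.12% of all autosomal circRNAs. Most of these lay in the Prader-Willi and Angelman domain, an imprinted region in which the paternal allele transcribes a long noncoding RNA that runs antisense to the ubiquitin ligase gene Ube3a. Between the start of Ube3a and the end of Magel2 (chr7:59228750-62381640) there were 104 circles with 1028 counts, from A230057D06Rik (18 circles, 464 counts), Snhg14 (51, 350), Gm9801 (8, 78), Gm44643 (4, 53), A330076H08Rik (9, 26), A230006K03Rik (6, 23), B230209E15Rik (4, 16), Gm44644 (1, 8) and 3 circles that joined 2 of these genes. The region's sum was 2418 CPM (each count relative to all circRNA counts of its library) in penumbra, 2430 in frontal core, 2503 in occipital core and 2740 in sham. The region thus took between 25.1% and 26.9% of these circles' counts in each library.

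A230057D06Rik is an unnamed lincRNA on the minus strand of this domain. Its most counted circle, chr7:61813262-61814190, joins exons 2 and 3 of a 6-exon transcript and is shown whole, 236 bases long, with the 8 bases next to the junction at each end in capitals, because it carried most of the gene's counts.

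A230057D06Rik circle: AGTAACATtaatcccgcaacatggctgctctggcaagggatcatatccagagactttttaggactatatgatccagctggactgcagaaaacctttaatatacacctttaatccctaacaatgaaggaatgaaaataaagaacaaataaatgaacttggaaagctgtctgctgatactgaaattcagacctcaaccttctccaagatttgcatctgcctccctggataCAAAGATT

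This circle had 56 counts in penumbra, 76 in frontal core, 41 in occipital core and 83 in sham, or 581, 626, 493 and 779 CPM. All 3 MCAO libraries were below sham, with a ratio of 0.633 in occipital core over sham (0.425 to 0.932, Fisher's exact test, unadjusted p = 0.0182, adjusted p = 0.261). The circle made up 56% of the gene's circle counts in penumbra, 56.3% in frontal core, 48.8% in occipital core and 57.2% in sham. The same downstream end served 6 circles with 368 counts, among them the 112159-base circle chr7:61813262-61925420 (26 counts in penumbra, 15 in frontal core, 21 in occipital core, 25 in sham). The longer circle was lowest in frontal core, while the lowest CPM of the shorter one was in occipital core. Another circle, chr7:61911363-61925420, had 4 counts in penumbra, 17 in frontal core, 9 in occipital core and 17 in sham; its ratio was 0.26 in penumbra over sham (0.0637 to 0.798, exact test, unadjusted p = 0.00869, adjusted p = 0.24).

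Snhg14 is the paternally expressed host of the Snord116 and Snord115 snoRNA clusters, whose snoRNAs are cut from its introns. Its most counted circle, chr7:59955645-59956800, holds exons 7 and 8 of a 12-exon transcript, 199 bases in all, shown in the same way.

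Snhg14 circle: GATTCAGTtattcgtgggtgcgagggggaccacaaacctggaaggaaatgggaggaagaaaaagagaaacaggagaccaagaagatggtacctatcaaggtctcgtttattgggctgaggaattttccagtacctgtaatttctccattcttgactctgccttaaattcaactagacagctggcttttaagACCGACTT

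It had 42 counts in penumbra, 30 in frontal core, 41 in occipital core and 40 in sham. In CPM these are 436, 247, 493 and 375, so that frontal core was lowest. The ratio was 0.501 in frontal core over occipital core (0.302 to 0.822, exact test, unadjusted p = 0.00506, adjusted p = 0.169) and 1.76 in penumbra over frontal core (1.08 to 2.92, unadjusted p = 0.0176, adjusted p = 0.237).

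The other 50 Snhg14 circles held 197 counts, and many had an end at a set distance from a snoRNA gene. Of the 51, 12 had both ends on annotated boundaries and 39 had 1 end that no annotated exon marks. GENCODE places 208 snoRNA genes in Snhg14, at a median spacing of 1872 bases. Of the 21 unannotated 5′ ends, 19 lay 400 to 403 bases upstream of the nearest snoRNA gene; of the 18 unannotated 3′ ends, 11 lay 255 to 262 bases upstream of one. Circles shared some of these ends, which fell on 19 distinct 5′ and 14 distinct 3′ positions. Among the other unannotated ends, the 3′ ends at chr7:59349677 and chr7:59368377 lay 63 bases upstream of a snoRNA gene. The rest lay at other distances. At 3 snoRNA genes (Gm22631, Gm22941 and Gm25944) both kinds of end were seen, 147 bases apart, counting both ends. At Gm22373 they were 140 bases apart. Over all 51 Snhg14 circles, the most used annotated ends were the 3′ end at chr7:59667850 (18 circles) and the 5′ end at chr7:59973650 (13 circles). A further 91 circRNAs with 305 counts lay inside Snhg14 with no end on any boundary and so fell outside the rule. The units of this cluster are close copies of each other, so the copy to which a read was assigned is uncertain.

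The second imprinted domain, from Dlk1 to Dio3 on chromosome 12, gave 8 circles from the maternally expressed Meg3 (2), Rian (4) and Mirg (2). Together they had 13 counts in penumbra, 10 in frontal core, 11 in occipital core and 16 in sham. Rian, a snoRNA host, had 11 counts in penumbra, 8 in frontal core, 8 in occipital core and 9 in sham, or 114, 65.9, 96.3 and 84.5 CPM. Meg3 had 0 counts in penumbra, 1 in frontal core, 1 in occipital core and 5 in sham over its 2 circles. Its single-exon circle chr12:109544948-109545041 had 0 counts in penumbra, 0 in frontal core, 0 in occipital core and 5 in sham. This circle was too low to test. Counts in 1 library only were found for 35 of the 334 circles (10.5%, against 10.4% of all other circRNAs). The 3 counts that stand for a 0 in ratios equal 31.1, 24.7 and 36.1 CPM in penumbra, frontal core and occipital core. The Mirg circle chr12:109734563-109737807 (2, 0, 1 and 2 counts) was the one circle of the 110 with an annotated exon structure that held a whole microRNA or snoRNA gene within its exons. Of the imprinted list, 4 of 9 genes hosted circles; Peg13, Kcnq1ot1, Airn, Nespas and H19 hosted none.

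Lncpint is a p53-induced long noncoding RNA. It had the largest sum, with 161 counts in penumbra, 156 in frontal core, 147 in occipital core and 173 in sham over 25 circles (1671, 1285, 1769 and 1624 CPM). Few ends were used: the 5′ end 39.3 kb into the gene (chr6:31181149) served 9 circles and 377 counts, the 5′ end 22.6 kb into it (chr6:31197851) 10 circles and 234 counts, and the 3′ end at chr6:31166476 served 3 circles and 363 counts. The most counted circle, chr6:31166476-31181149, had 73 counts in penumbra, 81 in frontal core, 50 in occipital core and 81 in sham. Its ratios to sham lay close together at 0.997 in penumbra (0.716 to 1.38), 0.878 in frontal core (0.637 to 1.21) and 0.792 in occipital core (0.545 to 1.14).

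The 58123-base circle chr6:31139729-31197851 behaved otherwise. It had 24 counts in penumbra, 12 in frontal core, 30 in occipital core and 17 in sham, or 249, 98.9, 361 and 160 CPM. Frontal core was lowest and occipital core highest. It was the 1 circle of the 334 that passed the call rule in any pair of libraries (Benjamini-Hochberg adjusted p under 0.05 over all circRNAs tested and a CPM ratio of at least 2): 0.274 in frontal core over occipital core (0.128 to 0.551, Fisher's exact test, adjusted p = 0.0166), or 1 of 35 of these circles tested where 0.344% of all 3780 circRNAs tested were called. The call was lost with no filter on counts (adjusted p = 0.0929) and when a coefficient of variation of 0.2 between libraries was assumed (edgeR exact test, adjusted p = 0.634). The circle that shares its 5′ end, chr6:31166476-31197851, had 17 counts in penumbra, 12 in frontal core, 20 in occipital core and 27 in sham, and was not called.

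Over all Lncpint circles, the share with the 5′ end at chr6:31197851 was 37.3% in penumbra (29.8 to 45.2), 28.2% in frontal core (21.3 to 36), 45.6% in occipital core (37.4 to 54) and 36.4% in sham (29.2 to 44.1). This share was chosen after its values were seen and was not tested. It contains the called circle: without that circle it was 26.3% in penumbra (19.1 to 34.5), 22.2% in frontal core (15.7 to 29.9), 31.6% in occipital core (23.3 to 40.9) and 29.5% in sham (22.5 to 37.3). The frontal core and occipital core intervals overlapped once the called circle was left out, and did not overlap with it. Next to Lncpint and on the other strand, 2210408F21Rik overlaps its first 138 bases; the circle chr6:31277848-31285120 of that gene had 9 counts in penumbra, 3 in frontal core, 6 in occipital core and 14 in sham. It too was lowest in frontal core (0.188 over sham, 0.0347 to 0.674, exact test, unadjusted p = 0.00561, adjusted p = 0.131).

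**Figure D1:**
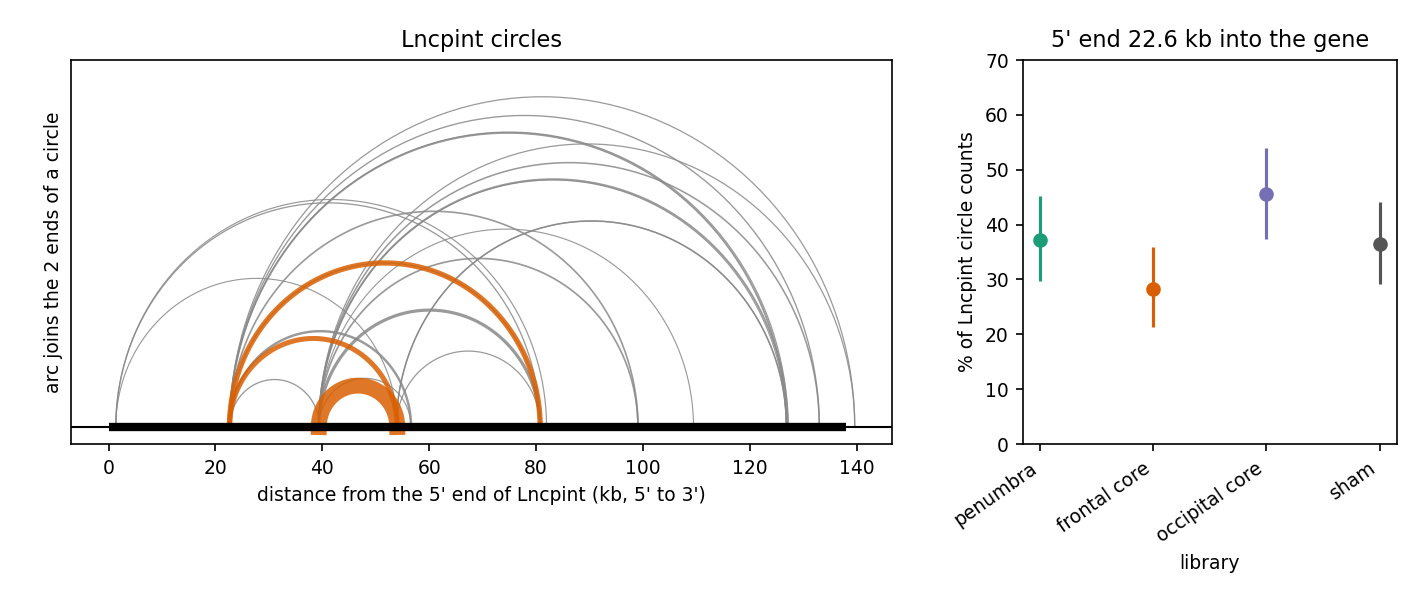
Left, the 25 Lncpint circles drawn as arcs between their 2 ends, by distance in kb from the 5′ end of the gene (black bar), with line width rising with the summed count and orange for the 3 circles of 50 or more counts; the arc height has no scale. Right, the percentage of Lncpint circle counts whose 5′ end lies 22.6 kb into the gene, per library, with 95% Clopper-Pearson intervals: 28.2% in frontal core and 45.6% in occipital core; these counts include the called circle, without which they are 22.2% and 31.6%.

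4933406I18Rik, a lincRNA that starts 120 bases from the cyclic nucleotide phosphodiesterase gene Pde3b and runs away from it, had 1 circle, and that circle had the largest count of the 334. Its 2 exons (exons 2 and 3 of 4, 301 bases) gave 64 counts in penumbra, 106 in frontal core, 48 in occipital core and 81 in sham, or 664, 873, 578 and 760 CPM. Frontal core was highest here, with a ratio of 1.51 over occipital core (1.07 to 2.17, exact test, unadjusted p = 0.0172, adjusted p = 0.293). Against sham the ratios were 0.874 in penumbra (0.62 to 1.23), 1.15 in frontal core (0.852 to 1.55) and 0.76 in occipital core (0.52 to 1.1).

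Pvt1, a neighbour of the oncogene Myc, is known in human cells for a circle made of its exon 2. The mouse circle of exon 2, 318 bases long at chr15:62107148-62107465, had 45 counts in penumbra, 44 in frontal core, 33 in occipital core and 44 in sham. Its ratios to sham were 1.13 in penumbra (0.73 to 1.75), 0.878 in frontal core (0.565 to 1.36) and 0.962 in occipital core (0.593 to 1.55). Each interval includes 1, which does not show that the level was unchanged. This circle held 68.3% of the counts of the 8 Pvt1 circles.

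Rmst, a long noncoding RNA whose human counterpart binds the transcription factor SOX2 in neural differentiation, had 3 circles, of which chr10:92075170-92136690 held 93.6% of the counts. It had 42 counts in penumbra, 31 in frontal core, 22 in occipital core and 22 in sham, or 436, 255, 265 and 206 CPM. Penumbra was highest, at 2.11 times sham (1.23 to 3.71, exact test, unadjusted p = 0.00385, adjusted p = 0.196) and 1.71 times frontal core (1.05 to 2.81, unadjusted p = 0.0249, adjusted p = 0.293). Neither ratio passed the call rule.

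Mir124a-1hg hosts miR-124, a microRNA abundant in neurons. Its circle chr14:64589841-64590363 ended 294 bases before the Mir124a-1 gene and so did not contain it. It had 17 counts in penumbra, 8 in frontal core, 12 in occipital core and 8 in sham. The ratio in penumbra over sham was 2.35 (0.961 to 6.29, exact test, unadjusted p = 0.0455, adjusted p = 0.431). C130071C03Rik, a brain lincRNA near Mef2c, had at chr13:83872656-83884235 a circle with 8 counts in penumbra, 13 in frontal core, 2 in occipital core and 9 in sham. Of the list for neural development, Rmst and C130071C03Rik were the 2 of 10 genes that hosted circles; Miat, Sox2ot, Tunar, Dlx6os1, Six3os1, Pantr1 and Peg13 hosted none. Snhg11 had a circle, chr2:158380771-158381040, that the rule left out because GENCODE M21 types Snhg11 as protein coding (6 counts in penumbra, 1 in frontal core, 2 in occipital core and 4 in sham).

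Of 12 long noncoding RNAs studied in ischemia, Malat1, Snhg14, Meg3, Pvt1 and Rmst hosted circles (5 of 12), and Neat1, Gas5, Snhg1, Snhg12, Tug1, H19 and Miat did not. Malat1 is an abundant nuclear RNA. Its 1 circle, chr19:5801885-5801966, is 82 bases long, and is shown whole because it lies inside 1 long exon of an annotated transcript.

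Malat1 circle: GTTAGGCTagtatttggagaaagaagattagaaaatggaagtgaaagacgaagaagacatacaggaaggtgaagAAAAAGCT

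It had 5 counts in penumbra, 10 in frontal core, 7 in occipital core and 3 in sham. The ratio to sham was 2.93 in frontal core (0.753 to 16.5) and 2.99 in occipital core (0.683 to 17.9), and both intervals include 1. Among hosts of small RNAs, 9 of 30 listed genes had circles: Snhg14, Pvt1, Rian, Mir124a-1hg, Meg3, Mirg, Mir99ahg (7 counts), Dleu2 (3) and Mir670hg (2). No host of any of the 4 lists was called in penumbra over sham, frontal core over sham or occipital core over sham, where 0.282%, 0.614% and 0.915% of all hosts tested were. The 4 tested hosts of small RNAs had a median log2 ratio to sham of 0.36 in penumbra, -0.21 in frontal core and 0.27 in occipital core, beside 0.03, 0.03 and -0.0037 over all hosts tested. In the same order the medians were 0.36, -0.29 and 0.27 for the imprinted list (2 hosts tested in each pair), 0.60, 0.33 and -0.83 for the neural list (2 hosts in each) and 0.29, 0.07 and 0.32 for the ischemia list (3, 4 and 4 hosts). The lists share hosts.

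**Figure D2:**
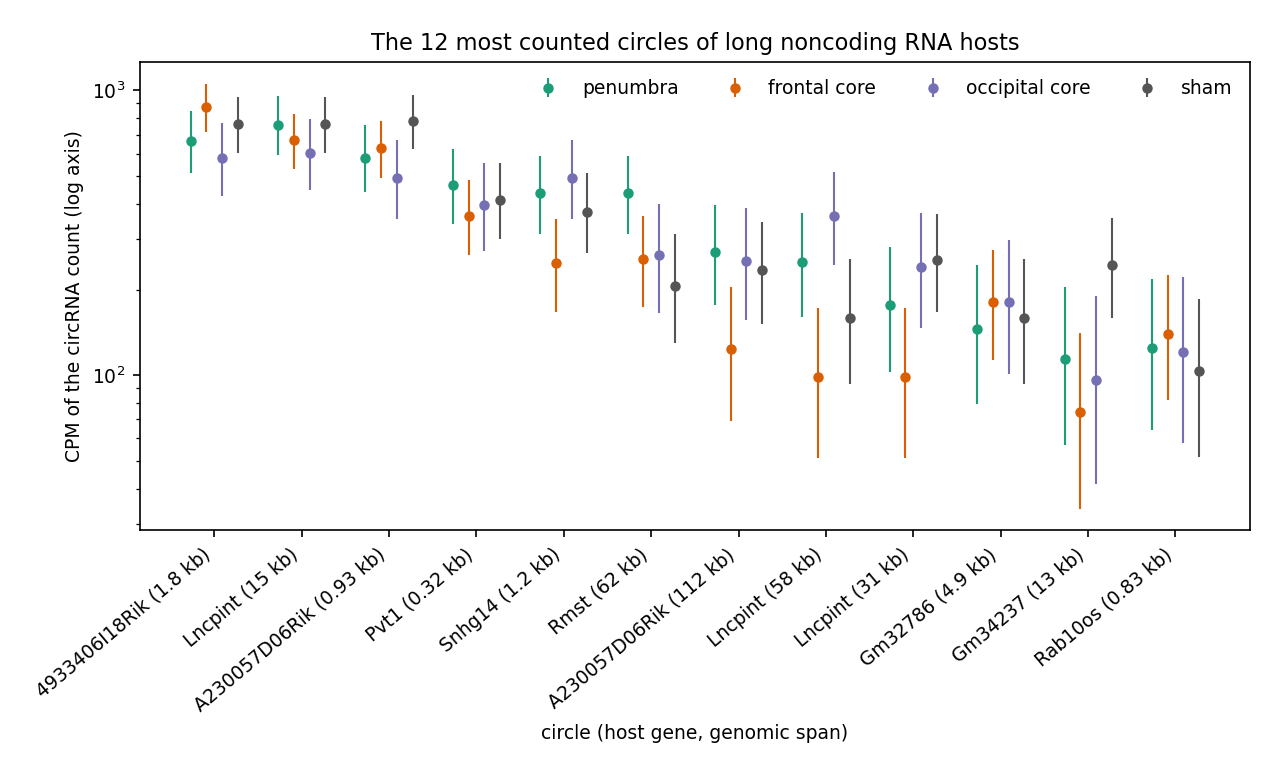
CPM (log axis) of the 12 most counted circles of long noncoding RNA hosts in penumbra, frontal core, occipital core and sham, with exact Poisson 95% intervals; each circle is named by its host and genomic span. The 58 kb Lncpint circle runs between 98.9 CPM in frontal core and 361 CPM in occipital core, and the Gm34237 circle is highest in sham at 244 CPM.

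Gm34237 and Gm7854 were the 2 hosts called on their summed counts, both lower in frontal core than in sham. The edgeR exact test with an assumed coefficient of variation was run on single circles, not on host sums. These 2 host calls thus allow for counting error only. Gm34237, a lincRNA on chromosome 12, had 22 counts in penumbra, 17 in frontal core, 20 in occipital core and 47 in sham over 8 circles. All 3 MCAO libraries were below sham. The ratio in frontal core over sham was 0.318 (0.171 to 0.563, Fisher's exact test, adjusted p = 0.00902), a call that 0.614% of the 2604 hosts tested received; it was 0.518 in penumbra over sham (0.297 to 0.876, adjusted p = 0.267) and 0.546 in occipital core over sham (0.306 to 0.939, adjusted p = 0.286). Its main circle, chr12:11871835-11884915 (exons 5 to 7 of 8, 312 bases), had 11 counts in penumbra, 9 in frontal core, 8 in occipital core and 26 in sham. Taken alone this circle was not called (0.304 in frontal core over sham, 0.125 to 0.669, adjusted p = 0.0675 by the exact test), but it was called where only circRNAs with 30 or more counts were tested (adjusted p = 0.0365); with an assumed coefficient of variation of 0.2 the edgeR exact test gave an adjusted p of 0.602.

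Gm7854 is annotated antisense to Cpeb2, a gene for a regulator of translation, with an overlap of 2186 bases at the starts of both genes. It had 4 counts in penumbra, 3 in frontal core, 8 in occipital core and 19 in sham over 3 circles. Its ratio in frontal core over sham was 0.139 (0.0263 to 0.471, Fisher's exact test, adjusted p = 0.0261); with no count filter the adjusted p was 0.0506, and it had too few counts for the filter of 30. The circle chr5:43165919-43191404 carried the difference, with 3 counts in penumbra, 2 in frontal core, 3 in occipital core and 15 in sham. It was below sham in all 3 MCAO libraries and had the smallest ratio to sham of the tested circles in penumbra (0.221, 0.041 to 0.782) and in frontal core (0.117, 0.013 to 0.503; adjusted p = 0.0596 by the exact test, and 0.54 by edgeR's exact test with an assumed coefficient of variation of 0.2).

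The remaining hosts with large sums varied as follows. AC161438.1, on chromosome 18, had 21 counts in penumbra, 35 in frontal core, 31 in occipital core and 33 in sham over 16 circles. 6530403H02Rik had 14 counts in penumbra, 36 in frontal core, 10 in occipital core and 18 in sham, and its circle chr3:120772682-120799747 had a ratio of 2.63 in frontal core over sham (1.08 to 7.33, exact test, unadjusted p = 0.0228, adjusted p = 0.254). Gm9801 had 14 counts in penumbra, 28 in frontal core, 14 in occipital core and 22 in sham. In CPM 6530403H02Rik was highest in frontal core, at 297 against 169 in sham, and Gm9801 at 231 in frontal core against 206 in sham.

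**Figure D3:**
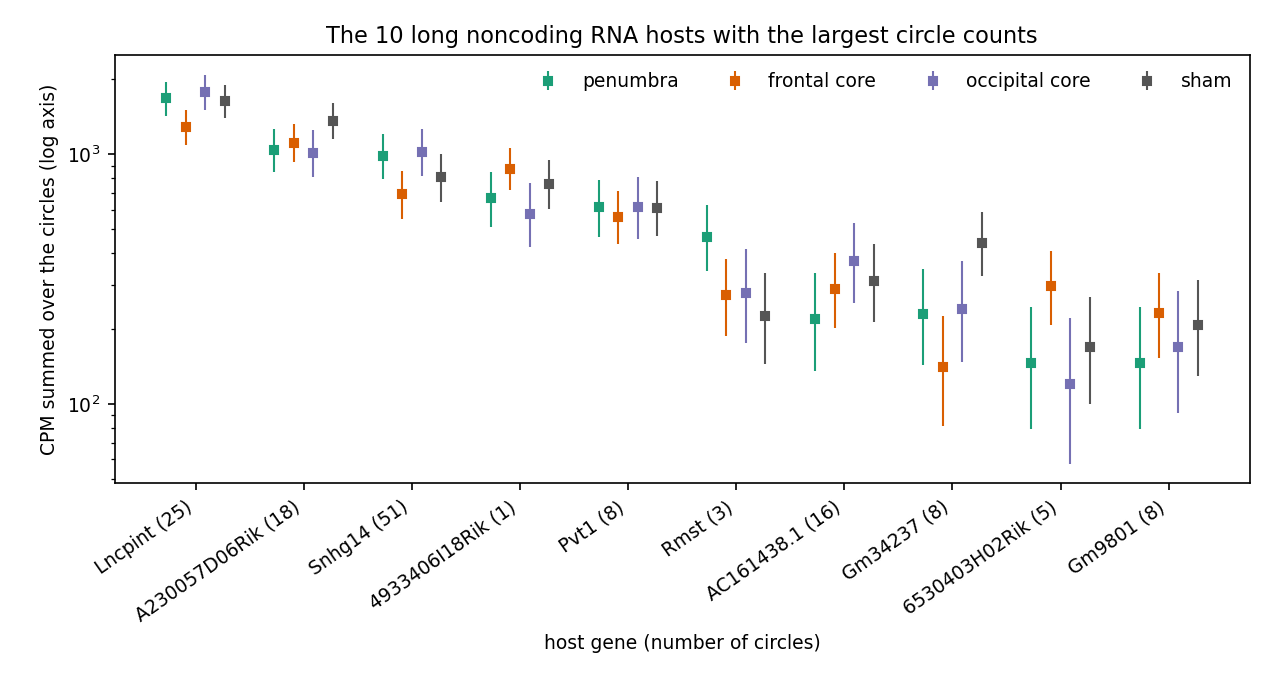
CPM summed over the circles of each host (log axis) for the 10 hosts with the largest counts, in penumbra, frontal core, occipital core and sham, with exact Poisson 95% intervals; the number of circles is in parentheses. Rmst is highest in penumbra at 467 CPM against 225 CPM in sham, and Gm34237 is highest in sham at 441 CPM against 140 CPM in frontal core.

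The other circles among the 25 most counted are given by their counts. Gm32786 (14 counts in penumbra, 22 in frontal core, 15 in occipital core, 17 in sham) had 1 end on its gene and the other 4909 bases past the annotated gene end. Rab10os (12, 17, 10 and 11) and Gm9801 at chr7:62192005-62193593 (8, 11, 6 and 14) had ratios to sham whose intervals all included 1. The same held for Zswim6 at chr13:107769560-107788009 (12, 12, 13 and 7), Trerf1 at chr17:47337551-47348856 (5, 12, 5 and 10), the 2 AC161438.1 circles (4, 6, 10 and 11; 4, 12, 8 and 6), the Lncpint circle chr6:31139729-31181149 (9, 12, 7 and 13) and the Lncpint circle chr6:31163894-31197851 (10, 7, 2 and 8). Gm49169 at chr15:95736513-95737296 stood out in frontal core and sham, with 2 counts in penumbra, 14 in frontal core, 2 in occipital core and 9 in sham. Its ratio was 0.18 in penumbra over frontal core (0.0199 to 0.784, exact test, unadjusted p = 0.0107, adjusted p = 0.183).

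Beside the Rmst, Lncpint and other circles described above, the ends of the range in the pairs with sham held circles of few counts. The lowest ratios included 9130024F11Rik at chr1:57002504-57004290 in frontal core over sham (2 against 8 counts, 0.219, 0.0227 to 1.1) and D930016D06Rik at chr5:104538826-104541262 in occipital core over sham (2 against 12 counts, 0.214, 0.0232 to 0.96). In occipital core over sham the Gm7854 circle chr5:43165919-43191404 followed (3 against 15 counts, 0.256, 0.0476 to 0.907, exact test, adjusted p = 0.308). C130071C03Rik came next in that pair, at 0.285 (0.03 to 1.38). The highest included Zswim6 at chr13:107769560-107788009 in occipital core over sham (2.38, 0.883 to 7.05), and Ndufb1-ps at chr12:101969493-101969637 (9 against 2 counts, 3.95, 0.818 to 37.6) and Gm26691 at chr3:134102008-134212045 (10 against 3 counts, 2.93, 0.753 to 16.5) in frontal core over sham, and Gm27188 at chr9:72230266-72233329 in penumbra over sham (7 against 4 counts, 1.94, 0.492 to 9.02).

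Pair by pair, 51 circles had the 10 counts over 2 libraries needed for a test in at least 1 pair, 23 in all 6, and 283 in none. In penumbra against sham, 0 of 34 were called, where 0.0538% of all circRNAs tested were; 6 of 34 had an unadjusted p under 0.05 (17.6%), beside 11.3% of all. In frontal core against sham, 0 of 42 were called (0.747% of all), and 5 of 42 (11.9%) had an unadjusted p under 0.05 (14.2% of all). In occipital core against sham, 0 of 35 were called (0.467% of all), and 5 of 35 (14.3%) had an unadjusted p under 0.05 (12.6% of all). The sham library is in all 3 of these pairs.

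Between the MCAO libraries, 0 of 32 were called in penumbra against frontal core (0.934% of all) and 0 of 30 in penumbra against occipital core (0.0606% of all). The unadjusted p was under 0.05 for 9 of 32 (28.1%; 12.8% of all) and 1 of 30 (3.33%; 7.03% of all). In frontal core against occipital core 7 of 35 had one (20%; 11.8% of all), among them the called Lncpint circle. Among hosts, the 2 calls in frontal core over sham were made among 40 tested, and 0 were made in the other pairs, where the shares of all hosts called were 0.282% in penumbra over sham, 0.915% in occipital core over sham, 0.82% in penumbra over frontal core, 0.0851% in penumbra over occipital core and 0.684% in frontal core over occipital core. The cores were taken at different positions, so the spread between them, used in the next test, is not a spread between replicates. With both cores taken as replicates of each other, edgeR's quasi-likelihood test called 0 of 71 circles in each of 3 comparisons and 0 of all 6736 circRNAs (unadjusted p under 0.05 for 292 in penumbra over sham, 359 in core over sham and 238 in penumbra over core); 4 circles had an unadjusted p under 0.05 in penumbra over sham, 2 in core over sham and 2 in penumbra over core.

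The median log2 ratio of the tested circles was -0.16 in penumbra over sham, 0.07 in frontal core over sham and -0.07 in occipital core over sham, beside 0.01, 0.03 and -0.06 over all circRNAs tested. The ratio was above 1 for 14 of 34 circles in penumbra, 22 of 42 in frontal core and 15 of 35 in occipital core.

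**Figure D4:**
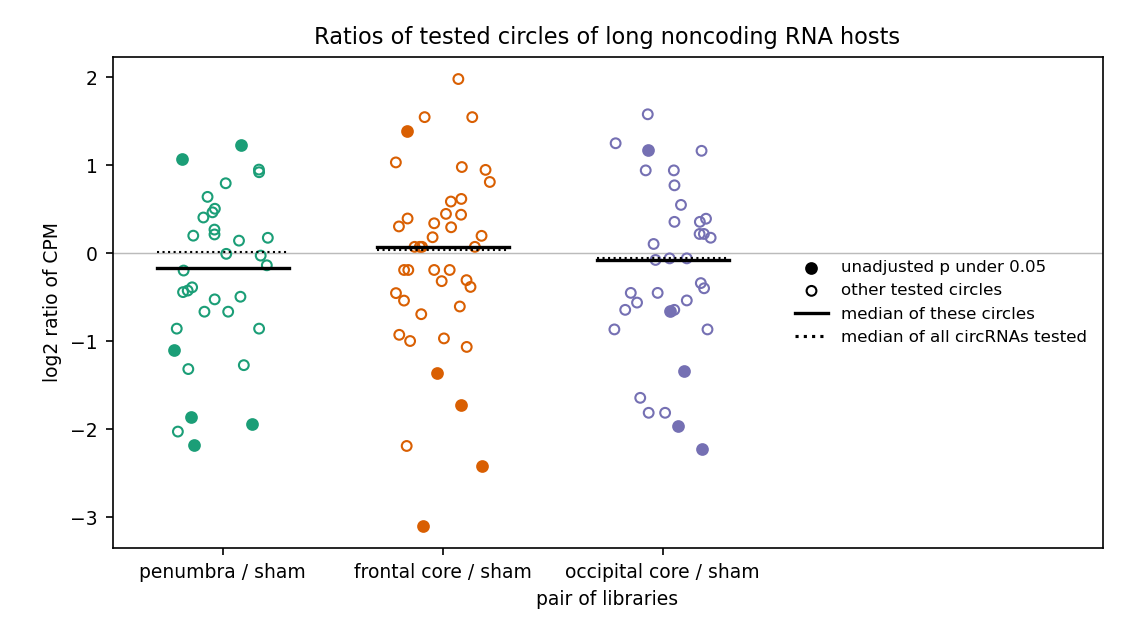
Log2 ratio of CPM for each tested circle of a long noncoding RNA host in penumbra over sham, frontal core over sham and occipital core over sham; filled points have an unadjusted exact p under 0.05, solid lines mark the median of these circles and dotted lines that of all circRNAs tested. The medians lie at -0.16, 0.07 and -0.07, and points spread on both sides of 0 in each pair.

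The tissue label was checked with circRNAs of marker genes for cell types. Circles of all 6 neuronal genes were present and summed to between 28782 and 31412 CPM in the 4 libraries. Of 4 astrocyte genes, Slc1a2 and Gpc5 had circles, with 249 CPM in penumbra, 198 in frontal core, 217 in occipital core and 122 in sham, and Slc1a3 and Aqp4 had none; the part of this difference in the results above was not tested. Of 4 oligodendrocyte genes St18 had circles (between 0 and 36.1 CPM), and none of 3 microglial or 2 erythrocyte genes had any.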

How the data were processed

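The deposited circRNA table gives whole-number counts per circRNA and library, made by the authors from directional, rRNA-depleted libraries (the labels name both a TruSeq and an NEBNext kit). TopHat2 2.0.10 and Bowtie are named in the submitters' processing notes; the circRNA caller is not given in the sources used here. The authors' FPKM column equals the count per genomic span and library total, so it was not tested. The notes name mm9, but 89.1% of starts and 89.7% of ends fell on exon boundaries of GENCODE M21 (GRCm38), whose coordinates were used. The table gives no strand, so it does not tell sense from antisense circles. The splice motif could be read at both ends for only 17 of the 334 circles, all on the host's strand. Host genes were assigned by shared exon boundaries; the members and gene lists were chosen with earlier results of these data known.

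Fisher's exact test (two-sided, SciPy 1.17.1) compared each circRNA, or host sum, of 10 or more counts over 2 libraries against the library totals; p-values were Benjamini-Hochberg adjusted over all tested. A call needed an adjusted p under 0.05 and a ratio of at least 2; a 0 was set to 3 counts for a ratio. The procedure was tested on simulated Poisson counts, which had no spread between libraries beyond counting error. Changes were simulated only in circRNAs with more counts than most of these circles had. Alternatives used edgeR 4.0.16 and DESeq2 1.42.0. Named were the 25 most counted circles, the 3 highest and 3 lowest ratios in each pair with sham, the 10 largest hosts, every call, and hosts in 4 gene lists. RefSeq served only to compare host types.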

Additional observations from a re-analysis of the deposited data

Results flagged for a closer look

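The Lncpint circle chr6:31139729-31197851 stood out because the core libraries differed from each other, with ratios on opposite sides of sham. It had 12 counts in frontal core, 30 in occipital core and 17 in sham. The ratio was 0.62 in frontal core over sham (0.27 to 1.38, Fisher's exact test, adjusted p = 0.681) and 2.26 in occipital core over sham (1.21 to 4.37, adjusted p = 0.176), so neither was called. The direct comparison of frontal core over occipital core gave 0.274 (0.128 to 0.551, Fisher's exact test, adjusted p = 0.0166). Each core is 1 pooled library, so this difference has no replicate check.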

How the results depend on the processing

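No paired analysis was possible because each group has 1 library, and leaving out a replicate could not be done for the same reason. The GC trend over genomic spans was not run, since no genome sequence was used here. TMM or DESeq2 scaling changed no call of a circle or host. In frontal core against occipital core the number of circles called was 0 with no count filter and 0 with the edgeR exact test at a coefficient of variation of 0.2, instead of 1. In frontal core against sham it was 1 with the filter of 30 counts, instead of 0, and the number of hosts called was 1 with no filter and 1 with that filter, instead of 2. Of 317 alternative values of named ratios, 314 kept their side of the call rule, 2 lost a call, 1 gained one and 0 turned direction. The median log2 ratios stayed within their order-statistic intervals under every alternative run, and thinning to the smallest library left between 192 and 211 circles detected.

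The share of counts in penumbra, frontal core, occipital core and sham was, with both ends on the same gene, 0.646%, 0.57%, 0.598% and 0.678%; with sex chromosomes included, 1.14%, 1.08%, 1.15% and 1.17%; and without Lncpint, 0.798%, 0.774%, 0.774% and 0.859%. Without the 4933406I18Rik circle it was 0.899% in penumbra, 0.816% in frontal core and 0.945% in sham. Leaving out the 5 hosts that RefSeq types as protein coding, an alternative chosen after seeing the data, kept every share within its interval and the calls as they were. Of the 334 circles, 263 had under 10 counts over the 4 libraries, and 283 were tested in no pair.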

Other observations

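The rule left out sex chromosomes, which held 12 more circles of such hosts with 698 counts. One of them had more counts than any of the 334: chrX:61183248-61186174, with both ends on exon boundaries of C230004F18Rik and with the annotated gene Cdr1 (chrX:61184005-61185558) inside its span. It had 154 counts in penumbra, 179 in frontal core, 145 in occipital core and 131 in sham. All 3 MCAO libraries were above sham in CPM. The ratio was 1.3 in penumbra over sham (1.02 to 1.65), 1.2 in frontal core over sham (0.952 to 1.51) and 1.42 in occipital core over sham (1.11 to 1.81), with adjusted p = 0.38, 0.5 and 0.136 by Fisher's exact test over all circRNAs.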
